A study of Camponotus floridanus with 15 samples.

Results

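The male of the carpenter ant *Camponotus floridanus* was set against the minor worker, the small worker of this species, in whole-body poly(A) RNA. The comparison rests on 3 of the 15 libraries of a developmental series: 1 library labelled male and 2 labelled minor, chosen by these labels alone, and it covers all 18979 genes of the deposited table. The other 12 libraries come from 6 groups of 2: embryos, larvae of instar 1 and of instar 4, early pupae, and late pupae of either worker caste, minor and major (the large worker). They serve here to describe where genes that differ between male and minor were expressed earlier in life. All animals were kept in plaster nests at 25 °C and 50% humidity under 12 hours of light, on sugar water and an artificial diet. The labels give no strain, colony, age, mating state or number of animals for any library, and they do not use the word adult. A second header line of the table calls the minor libraries worker. The late pupae are labelled by worker caste, and the sex of embryos, larvae and early pupae is not stated. Nothing in the labels says that the 2 minor libraries came from separate animals, and p-values therefore measure only the spread between libraries, which may be technical.

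In ants sex follows ploidy: males hatch from unfertilised eggs and are haploid, whereas workers are diploid females. Males are winged, mate and die soon after, and do not take part in brood care or foraging, which are the tasks of workers. A whole-body comparison of male and worker therefore takes in the reproductive tract, the flight muscle, the glands, the fat body and the nervous system at once, and fewer cells of a type and less RNA per cell cannot be told apart. The table holds IDs without names, and 0 of them matched the RefSeq table of the species. The labelled sexes could thus not be checked against marker genes, and for the same reason no role of a gene can be named.

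The values are RPKM, reads scaled to the length of the gene and to a total for each library. Read numbers recovered from the steps of these values came to 5083000 on genes of known length in male, 6378000 in minor replicate 1 and 3079000 in minor replicate 2, within the 2669000 to 7254000 of the other libraries. For a length of 1000 nt the floor of 3 reads lies at 0.141 RPKM in male, 0.088 in minor replicate 1 and 0.14 in minor replicate 2. Because RPKM of every gene moves with what the rest of a library takes up, libraries were rescaled for the tests by their median ratio to the mean library, a factor of 1.527 for male, 1.031 for minor replicate 1 and 0.551 for minor replicate 2. Without rescaling the median tested gene was 0.61 higher in male on the log2 scale. The 2 minor libraries thus differed from each other in scale, and minor replicate 1 was the nearer to male. Across 10807 tested genes, which are not independent replicates, the rescaled log2 values correlated at 0.922 between male and minor replicate 1, at 0.865 between male and minor replicate 2 and at 0.962 between the minor libraries.

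A set of genes was found in the male library and hardly anywhere else in the series. At 1 RPKM or more in male and under 1 RPKM in each of the other 14 libraries were 191 of 18979 genes (1.01%). Most of them were low: their median was 1.68 RPKM in male, 70 reached 2 RPKM and 26 reached 5 RPKM. Above that lay 11 genes at 20 RPKM or more, from 29.2 to 1033 RPKM in male, of which 9 exceeded 100 RPKM. In the minor libraries none of these 11 was above 0.446 RPKM. The 191 genes summed to 3278 RPKM in male, 1.04% of that library's total, against 73.7 and 37.1 RPKM in minor replicates 1 and 2. The direction of this difference, like the low levels of the 11 genes in minor, follows from how the genes were chosen.

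CFLOG022432.1, the most abundant of these genes, was at 1033 RPKM in male. It was at 0.163 RPKM in minor replicate 1, at 0 in minor replicate 2 and at 0.188 RPKM or less in every library of the earlier stages. In reads on its length of 2154 nt this was 47358 in male, 12 in minor replicate 1 and 0 in minor replicate 2. CFLOG007999.2, the next in abundance, with a length of 967 nt, was at 371.1 RPKM in male, 0.242 in minor replicate 1 and 0 in minor replicate 2, or 7637, 8 and 0 reads. It did not exceed 0.134 RPKM in any earlier stage. For both genes the male library stood far above all of the others, which overlapped one another near 0. Neither reached 1 RPKM in a second library, which was the filter of the test described next, so they are given as levels without a p-value. The single male library gives them no spread between males.

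No other group of the series held as many such genes, but the groups differ in their number of libraries. With every library of a group at 5 RPKM or more and every other library under 1 RPKM, 26 genes belonged to male, 6 to minor, 4 to instar 4 larva, and 1 or 0 to each remaining group. A gene of male had to pass in 1 library and a gene of the other groups in 2. Counted by single library, the other 14 libraries held between 0 and 2 genes at 5 RPKM or more that were under 1 RPKM in all others. Each of these 14 libraries has a replicate of its group among the others, which takes out genes that the group shares. Male has none, so these counts cannot be set beside the 26 of male. At the lower limit of 1 RPKM these libraries held 2 to 119 such genes, with 119 in embryo replicate 1 and 55 in the next, instar 1 larva replicate 2. Genes of a single library at this limit were thus also found outside male. Each of these counts was below the 191 of male, beside which they cannot be set for the same reason. In male the number at 1 RPKM was 106 when rescaled values were used. By kind of ID, the 191 genes were 115 of 10285 in the first CFLOG number series (1.12%), 71 of 8335 in the second (0.852%) and 5 of 359 with the prefix XLOC (1.39%), all near the 1.01% of the whole table.

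**Figure D1:**
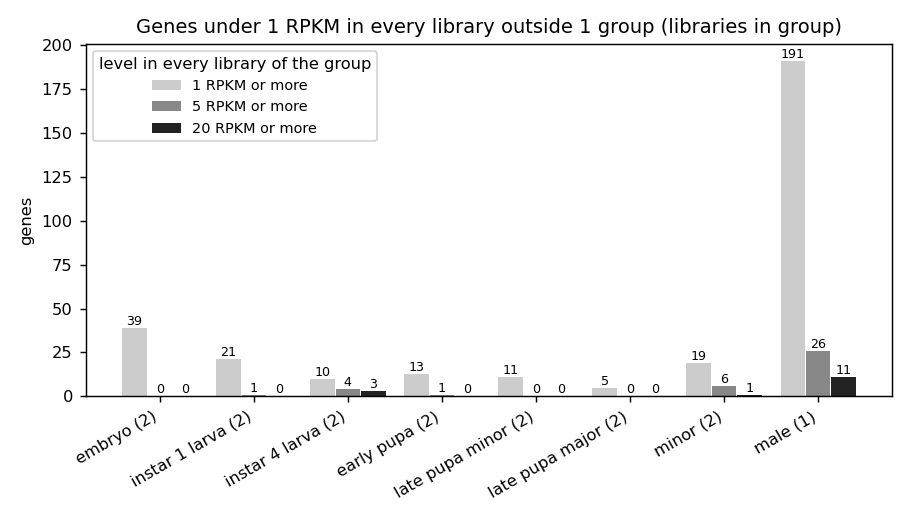
Number of genes whose level reached 1, 5 or 20 RPKM in every library of the group named on the horizontal axis and stayed under 1 RPKM in all libraries outside it, with the number of libraries of the group in parentheses. Male, with 1 library, has bars of 191, 26 and 11 genes, and minor, with 2 libraries, has 19, 6 and 1.

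Among genes with some expression elsewhere, differences were tested with limma on log2(rescaled RPKM + 1) over 10807 genes, those that reached 1 RPKM in 2 or more libraries. At a Benjamini-Hochberg adjusted p under 0.05, 499 genes (4.62%) were higher in male and 684 (6.33%) were lower. The median difference was 1.43 log2 units among the genes higher in male and -1.67 among those lower. Male was the highest of all 15 libraries for 275 of the 499 genes, and 1 of the minor libraries was the highest for 566 of the 684, which follows in part from how the genes were called. Among all tested genes the highest library was male for 8.98% and minor for 23.9%. The test takes the single male library to vary as the other groups do, so it holds no spread between males. For 28 of the 499 genes at least 12 of the other 14 libraries were under 1 RPKM, and their spread was estimated mostly from libraries with little expression.

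How many genes were called depended on the scale, on the minor library and on gene length. On the deposited scale 1221 genes (11.3%) were higher and 106 (0.981%) lower, so that the direction with more calls turned, and 499 higher and 104 lower genes were called on both scales. Against minor replicate 2 alone 1065 genes were higher and 1744 lower, and against minor replicate 1 alone 112 and 157. Called in the same direction against each minor library alone were 105 genes higher and 148 lower in male. A fit of male, minor and late pupae only called 7 and 18 genes, and when limma was given nothing but the 3 libraries of male and minor it called 0, although 1441 genes had a raw p under 0.05.

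**Figure D2:**
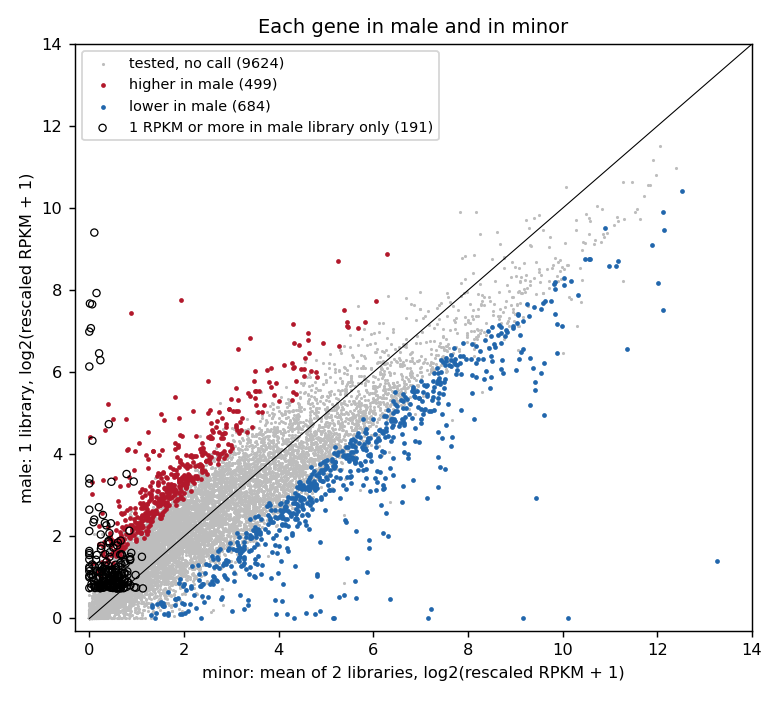
Each point is a gene, with the mean of the 2 minor libraries on the horizontal axis and the 1 male library on the vertical axis, both as log2(rescaled RPKM + 1); the line marks equal values. Genes called by limma are coloured (499 higher and 684 lower in male), and open circles mark the 191 genes at 1 RPKM or more in the male library only, of which a few stand high on the left edge.

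CFLOG026601.1 had the largest increase among genes called higher on both scales. It was at 264.3 RPKM in male against 0.484 and 0.709 in minor, on a length of 726 nt. The earlier stages lay between 0 and 2.96 RPKM, with the instar 4 larvae at 2.44 and 2.96, so male did not overlap any other library. The log2 difference was 6.57 ± 0.38 (SE, limma adjusted p = 8.37e-07). CFLOG004940.1, on 441 nt, was at 329.6 RPKM in male and at 2.06 and 2.12 in minor. Its libraries of earlier stages were at 0.67 RPKM or less except late pupa minor replicate 1, at 7.12, while replicate 2 of that group was at 0.393. The difference of 5.83 ± 0.74 (limma adjusted p = 0.000766) lost its call when only male, minor and late pupae entered the fit (adjusted p = 0.13).

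In the other direction CFLOG006752.2, on 465 nt, was at 9445 and 5716 RPKM in minor and at 2.53 RPKM in male. All earlier stages lay between 0 and 13.6 RPKM, the highest in instar 1 larva replicate 1, and male lay within their range. The difference was -11.84 ± 0.47 log2 units (limma adjusted p = 5.065e-08). CFLOG023792.1 was at 736.9 and 932.3 RPKM in minor and listed at 0 in male. Among the earlier stages only the late pupae of the minor caste had a value above 0, with 41.8 RPKM in replicate 1 and 0.207 in replicate 2. No length could be recovered for this gene, so no floor in reads can be given for the 0. Its fitted difference of -10.1 ± 1.37 (limma adjusted p = 0.00119) depends on the pseudocount and is no bound, and it missed the threshold in the fit of male, minor and late pupae (adjusted p = 0.144). For both genes the minor libraries stood above all others. Outside minor, CFLOG006752.2 was found at low levels in most earlier libraries, and CFLOG023792.1 in both late pupae of the minor caste.

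**Figure D3:**
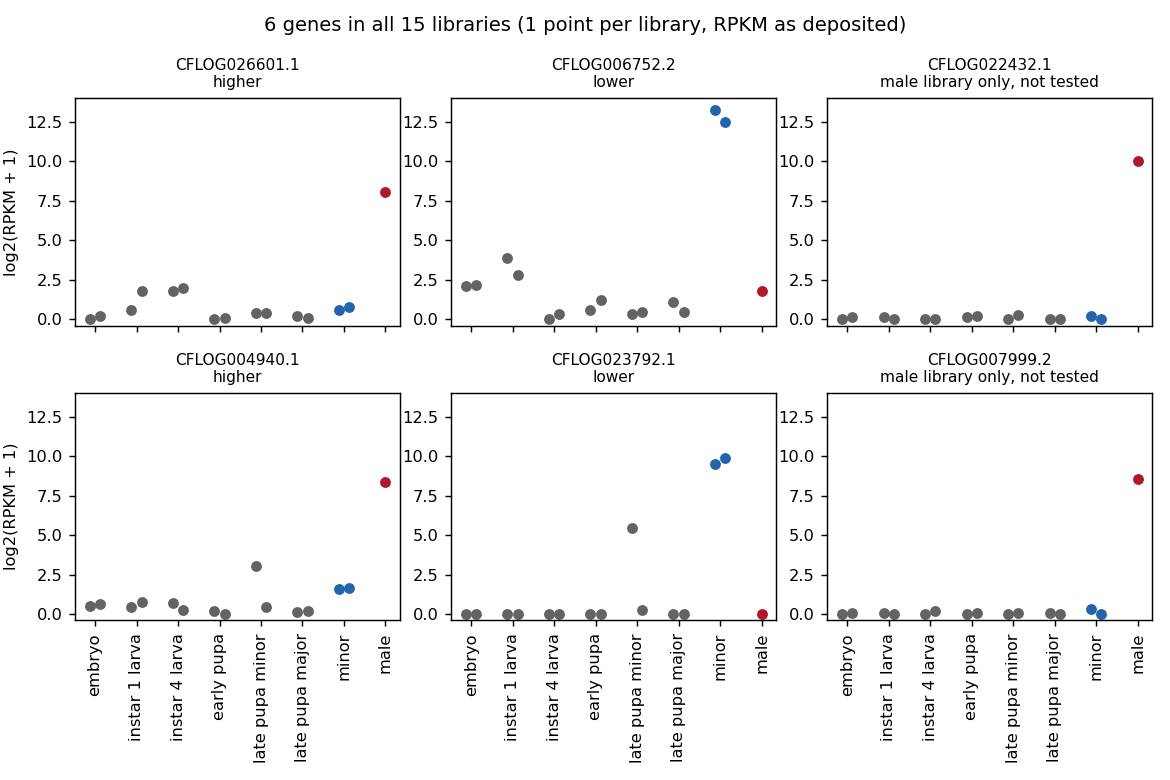
Level of the 6 genes named in the text as log2(RPKM + 1), on the deposited scale, with 1 point per library, the minor libraries in blue and the male library in red. In the panels of CFLOG022432.1, CFLOG007999.2, CFLOG026601.1 and CFLOG004940.1 male stands alone at the top, and in those of CFLOG006752.2 and CFLOG023792.1 the 2 minor libraries do.

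Large differences were fewer and were set against the spread between the minor libraries. The male library was at least 4-fold above both minor libraries, on the scale of rescaled RPKM + 1, for 83 of 18979 genes (0.437%) and at least 4-fold below both for 117 (0.616%). Between the 2 minor libraries 54 genes (0.285%) were at least 4-fold apart. Male differed by that much from minor replicate 1 at 233 genes (98 higher and 135 lower) and from minor replicate 2 at 734 (196 higher and 538 lower). Of the 83 genes 22 fell under the filter of the test, and of the 117 genes 0 did. For 24 of the 83 (28.9%) every earlier library was under 1 RPKM, for 17 (20.5%) every earlier library was at 1 RPKM or more, and 47 (56.6%) reached 1 RPKM in a late pupa library. Among the 117 genes lower in male the same numbers were 14 (12%), 50 (42.7%) and 96 (82.1%). Over all 18979 genes these shares were 41.9%, 30.2% and 49.1%, and over the tested genes they were 1.08%, 53% and 85.6%. The share of the lower genes found in late pupae was thus close to that of tested genes at large.

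Genes expressed in one sex and not detected in the other were few. Under the floor of 3 reads in both minor libraries and at 1 RPKM or more in male were 59 genes (0.311%), with a median of 1.87 and a maximum of 310.6 RPKM in male. The reverse held for 18 genes (0.0948%), whose mean in minor had a median of 3.13 and a maximum of 834.6 RPKM. Both counts use deposited RPKM, and they were 43 and 24 with rescaled RPKM. Of the 59 genes 27 passed the filter of the test, and all of the 18 did, since they reach 1 RPKM in both minor libraries by choice. At these depths the floor limits reads, not expression: 7 of the 18 genes were listed at 0 in male, and 17 of the 59 were at 0 in both minor libraries. By the looser limit of 1 RPKM, also on the deposited scale, 6724 genes were expressed in all 3 libraries. In male and in neither minor library were 1168, and in both minor libraries and not in male were 114. Male shared a further 1585 genes with minor replicate 1 but not replicate 2, and 41 with minor replicate 2 but not replicate 1. On the deposited scale the median tested gene was 0.61 log2 units higher in male, and the part of scale in these counts was not tested.

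Differences between male and minor moved with gene length. Tested genes with a length were put into 3 classes of like size. Of the long genes (1607 nt or more), 341 of 3471 (9.82%) were higher in male and 67 (1.93%) lower. Of the short genes (761 nt or less) 64 of 3485 (1.84%) were higher and 350 (10%) lower. The median log2 difference was 0.42 among long, -0.13 among middle and -0.35 among short genes. Both minor libraries gave this order: against minor replicate 1 the medians of long and short genes were 0.28 and -0.25, and against minor replicate 2 they were 0.56 and -0.46. The minor libraries also differed from each other in the same way, with minor replicate 1 higher than replicate 2 at long genes (median 0.19) and lower at short ones (-0.29). Relative to each gene's mean over the 15 libraries, the median of long genes lay above that of short genes by 0.21 log2 units in male, within the range of the 12 earlier libraries (-0.2 to 0.42). In minor replicates 1 and 2 the same difference was -0.38 and -0.88, outside that range. RNA quality was not given for any library, and its part in this was not tested. When libraries were rescaled within 10 length classes of like size, 203 of 10451 genes (1.94%) were higher in male and 303 (2.9%) lower, against 430 and 565 of the same genes without this step. Of the 472 higher and 627 lower genes with a length, 177 and 247 were still called. The signs of all of them were kept, which follows in part from their size. The smallest differences called were 0.79 log2 units higher and 0.89 lower, while the median of the longest of the 10 classes was 0.67. The recovered lengths are mostly coding lengths, since 98.3% of them for the first and 87.2% for the second CFLOG series divide by 3.

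**Figure D4:**
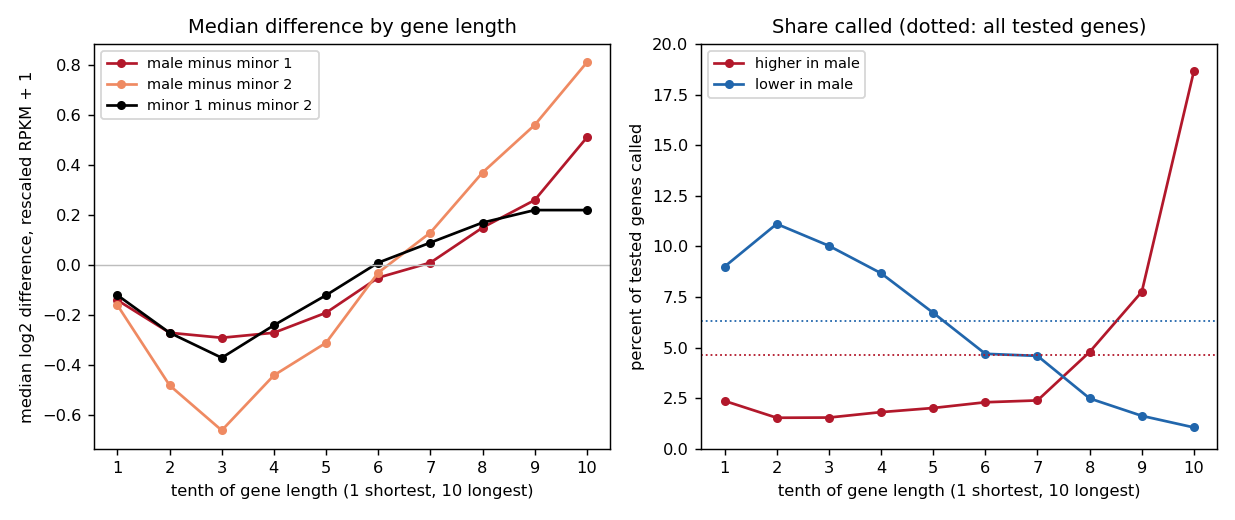
Tested genes with a recovered length in 10 classes of like size, from 1 (shortest) to 10 (longest) on the horizontal axis. Left, the median log2 difference of male against each minor library and of the minor libraries against each other; right, the percent of genes called higher and lower in male, with dotted lines at the 4.62% and 6.33% of all tested genes. All 3 median lines are lowest at class 2 or 3 and highest at class 10 (3272 nt or more), where 18.7% of genes were higher in male and 1.05% lower.

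Genes that differed between male and minor also differed in where they had been expressed earlier, a property taken from the levels of no male or minor library. The calls are not independent of it, since the fit takes its spread and scale factors largely from the same earlier libraries. The part of that spread in the shares below was not tested. Tested genes whose highest earlier mean was in the late pupa of the major caste were called higher in male in 153 of 1639 cases (9.34%) and lower in 52 (3.17%). Genes highest in embryo came next among the stages, with 131 of 2347 (5.58%) higher and 42 (1.79%) lower. The opposite held for genes highest in instar 4 larva, of which 264 of 1934 (13.7%) were lower in male and 38 (1.97%) higher. Genes highest in the late pupa of the minor caste were lower in 201 of 2188 cases (9.19%) and higher in 82 (3.75%). Genes of the 2 late pupal castes, both of them workers, lay on opposite sides of the shares over all tested genes in this fit. The medians were small beside the spread of single genes, at 0.18 for late pupa major, -0.18 for late pupa minor and -0.45 for instar 4 larva.

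Which of these shares lay above or below that of all genes depended in part on the setting. Genes highest in late pupa major kept a larger share higher in male than all genes in each of 4 other settings: 3.46% against 1.94% after rescaling within the 10 length classes, 16.5% against 9.86% without minor replicate 1, 1.71% against 1.04% without minor replicate 2, and 18.2% against 11.3% on the deposited scale. Genes highest in instar 4 larva were lower in 5.65% against 2.9% with the length classes, in 31.2% against 16.1% without minor replicate 1 and in 1.97% against 1.45% without minor replicate 2. On the deposited scale they were lower in 1.09%, near the 0.981% of all genes. Genes highest in late pupa minor were lower in 3.89%, 22.4%, 2.19% and 1.69% in the same order of settings, so that without minor replicate 2 and on the deposited scale their share passed that of instar 4. Their share higher in male turned to above that of all genes with the length classes (2.3%) and without minor replicate 2. In that share they then no longer lay opposite to genes of late pupa major. In the share lower in male the 2 castes stayed on opposite sides of all genes in both settings. With the length classes 3.89% of genes of late pupa minor and 2.015% of late pupa major were lower, against 2.9%. Genes highest in embryo turned as well, with 1.63% higher in male with the length classes and 0.682% without minor replicate 2, both below all genes.

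Tested genes under 1 RPKM in all 12 earlier libraries numbered 117. Such a gene had to reach 1 RPKM in 2 of the 3 libraries of male and minor to be tested, which favours genes high in minor, so its share of calls is set partly by the filter and nothing is read from it. Of the 117 genes 30 (25.6%) were lower in male and 11 (9.4%) higher. On the deposited scale this order turned, with 17.1% lower and 23.9% higher. The shares were 41% and 13.7% without minor replicate 1, 21.4% and 9.4% without minor replicate 2, and 21.1% and 8.77% after rescaling within the 10 length classes. Genes under 1 RPKM everywhere except in both minor libraries numbered 19, with means of 1.13 to 40.6 RPKM in minor.

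**Figure D5:**
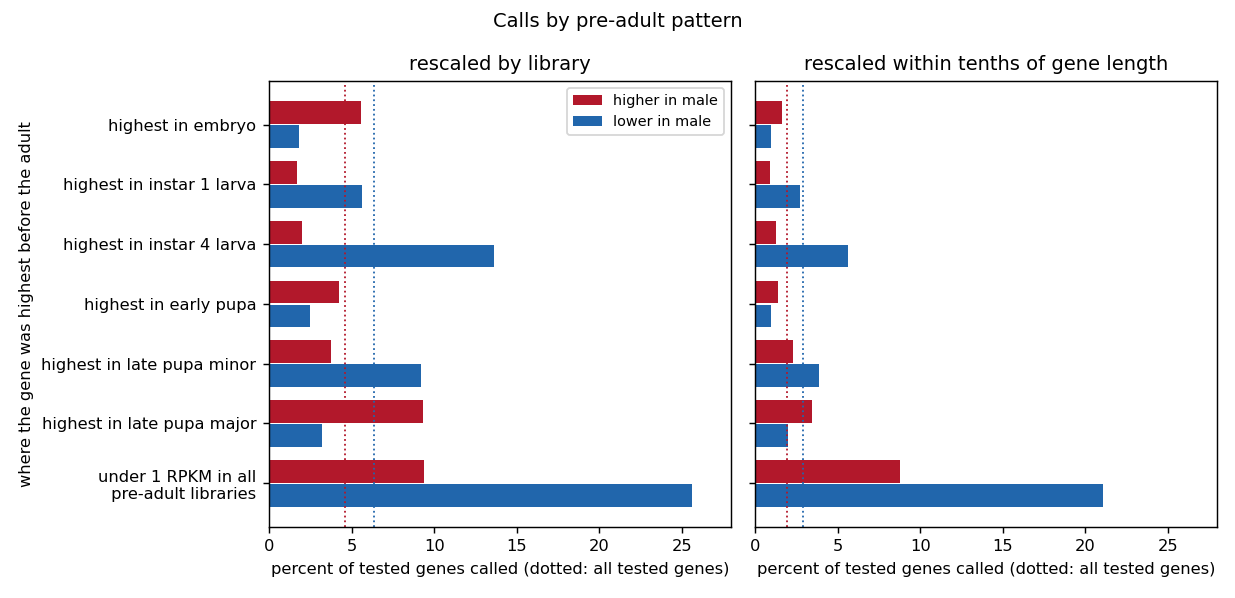
Percent of tested genes called higher (red) and lower (blue) in male, by the earlier group in which the gene had its highest mean; dotted lines mark the shares over all tested genes. On the left libraries were rescaled as a whole, and on the right within 10 classes of gene length, where the shares are smaller and the bars of instar 4 larva (lower) and late pupa major (higher) still pass the dotted lines.

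Calls also varied with the level in the earlier stages, on the rescaled values. Tested genes were put into 4 classes of like size by their mean over the 12 earlier libraries. In the highest class 359 of 2702 (13.3%) were lower in male and 75 (2.78%) higher, with a median difference of -0.56. The other 3 classes had 2.89% to 5.07% lower and 4.03% to 6.07% higher. Among the short genes of the highest class 186 of 908 (20.5%) were lower in male, with medians of -0.61 against minor replicate 1 and -1.36 against minor replicate 2. After rescaling within the 10 length classes the highest class had 4.32% lower against 2.9% over all genes. Against minor replicate 1 alone it had 2% lower against 1.45%, and genes of the lowest class had 2.22%, so that the highest class then no longer led. On the deposited scale the pattern turned: the highest class had 0.777% lower, under the 0.981% of all genes, and the lowest class had 2.15%. The median of the highest class there was 0.36, against 0.61 over all tested genes.

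Most of the 50 genes with the highest RPKM in male were also among the top 50 of each minor library, with exceptions. Of the 50 genes with the highest RPKM in male 35 were also among the top 50 of minor replicate 1 and 31 among those of minor replicate 2, while the 2 minor libraries shared 42. The top 50 took 23.9% of the RPKM total in male, 32.3% in minor replicate 1 and 35.8% in replicate 2. Of the 42 genes in the top 50 of both minor libraries, 15 were called lower in male on the rescaled values and 0 higher. Over all tested genes 6.33% were lower and 4.62% higher. This direction follows in part from choosing genes by their level in minor, and calls among them on the deposited scale were not counted. Of the top 50 of male, 4 were called lower and 0 higher, and 1 fell under the filter and was not tested. CFLOG006752.2, at 9445 and 5716 RPKM in minor, was at 2.53 RPKM in male.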

How the data were processed

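Whole-body RNA was extracted with TRIzol, treated with DNase and made into strand-specific libraries of poly(A) RNA, per the labels' protocols. The tools STAR (2.5.0b) and DESeq2 appear, with no role stated, in the list from the submitters' processing notes. Genome build, annotation and counter were not given in the sources used here. For 18979 genes and 15 libraries the authors deposited RPKM, and 0 columns were left without a sample.

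Each RPKM is a whole number of reads divided by a gene's length and a library's divisor, so steps of low values gave the divisors (21280000 in male, 34150000 and 21360000 in minor) and 13951 lengths; what a divisor counts is not stated. Floors of 3 reads cover counting error only. A gene without a length counted as under the floor only at 0. Libraries were rescaled by median ratios over the 9990 genes above 0 in every library. limma 3.58.1 (R 4.3.3) was fitted to log2(rescaled RPKM + 1) with 1 term for each of 8 groups, eBayes with trend and two-sided tests adjusted by Benjamini-Hochberg. Folds are on that scale and understate changes of low genes. The steps were tested on simulated data.

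Classes use ID kind, length and the 12 earlier libraries and were described without a test. The 12 earlier libraries also enter the fit, so classes by earlier pattern or level are not independent of the calls. Genes were named by a rule: the 2 of largest difference in each direction called on both scales, and the 2 of highest RPKM found in the male library only. The comparison, the lists and the rules were chosen with earlier results of these data known. Alternatives covered scale, pseudocount, filter, the samples in the fit, trend, left-out libraries and, added after seeing the data, gene length. Marker lists could not be matched to IDs (0 of 14020 RefSeq genes) and were not used.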

Additional observations from a re-analysis of the deposited data

How the results depend on the processing

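No paired analysis was possible because male has 1 library, so male and minor share fewer than 2 replicate numbers. Single libraries were left out only for minor and late pupa minor, 1 at a time, and not for the other groups. The 499 genes higher and 684 lower in male became 1221 and 106 on the deposited scale, 7 and 18 with male, minor and late pupae only, 0 and 0 with the 3 libraries alone, and 203 and 303 after rescaling within 10 classes of gene length, and 360 were lower with no filter. Leaving out 1 library gave 112 to 1065 higher and 157 to 1744 lower, the extremes without minor replicate 2 and replicate 1. The 83 and 117 genes at least 4-fold above or below both minor libraries were 210 and 54 on the deposited scale and 234 and 257 with a pseudocount of 0.1, and 98 to 196 and 135 to 538 without a minor library. At 5 RPKM in place of 1 RPKM, 11 genes were on in male and under the floor in minor, 8 the reverse, and 26 were found in the male library only. With rescaled RPKM the 191 genes of the male library only were 106 at the limit of 1 RPKM, and the 26 were 18 at 5 RPKM. The 59 genes on in male and under the floor in minor were 43 with rescaled RPKM, and the 18 of the reverse were 24. The cause of these shifts was not tested, apart from what each setting removes. All 4 tested named genes kept their direction in every alternative that included them. They lost their calls with the 3 libraries alone (adjusted p of 0.262 to 0.269), as did CFLOG004940.1 and CFLOG023792.1 with male, minor and late pupae. Leaving aside those 2 reduced fits, 71 higher and 58 lower genes were called in every alternative. Depth limits what can be said of low genes: 3 reads on 1000 nt are 0.088 to 0.141 RPKM in these libraries.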

Other observations

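IDs of the CFLOG kind carry a running number, and genes with neighbouring numbers were more often called in the same direction than tested genes at large. Of 323 genes higher in male whose next number was also tested, 33 (10.2%) were followed by a gene that was higher too, where 4.82% of all next genes were. Of 480 genes lower in male 47 (9.79%) were followed by another lower gene, where 6.62% of all next genes were lower. The sources used here do not say whether the numbers follow the genome, and the shares are given as a description without a test. By ID kind, 371 of 6458 genes of the second series (5.75%) and 120 of 4022 of the first (2.98%) were higher in male. For XLOC genes this was 8 of 327 (2.45%), and for all tested genes 4.62%. Lower in male were 5.65%, 7.36% and 7.03% in the same order, against 6.33% of all tested genes. After rescaling within 10 classes of gene length the shares higher were 1.96%, 1.9% and 2.14%, against 1.94%. Those lower were 3.1%, 2.44% and 4.59%, against 2.9%.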
